A study of Mus musculus with 2 samples.

Results

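The transcript of the tumor suppressor gene Trp53 and the transcripts of 9 genes that the p53 protein turns on after DNA damage were followed in single nuclei of CIC::DUX4 sarcomas. The 10 genes were chosen by name, as genes that textbooks give for the p53 response to DNA damage, and are 10 of the 19059 genes counted. The data came from dFLEx CDS +/- mice, in which Cre and FLPE recombinases switch on a CIC::DUX4 fusion gene placed at Rosa26 behind the CAG promoter. Per the study's methods, both recombinases were delivered as plasmids driven by pCAG, a promoter active in most cell types, and electroporated into the gastrocnemius muscle of mice that were 6 to 12 weeks old and of both sexes. There were 4 untreated tumors and 4 tumors treated for 21 days with Minnelide, at a dose of 0.42 mg/kg. Both groups carried the same allele, and the labels name no Trp53 allele. Minnelide releases triptolide in the body, a compound that binds the XPB subunit of the general transcription factor TFIIH and blocks transcription by RNA polymerase II. The comparison of the groups asks whether transcripts of the DNA damage response differed with this treatment.

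The p53 protein is a transcription factor held at a low level by the ubiquitin ligase Mdm2. DNA breaks activate the kinases Atm, Atr and the checkpoint kinases Chek1 and Chek2, p53 is then phosphorylated and escapes Mdm2, and it binds response elements near its target genes. Its activity is set mainly by the stability and modification of the protein, which RNA counts do not measure. Among the targets, Cdkn1a encodes p21, which inhibits cyclin-dependent kinases and arrests the cell cycle. Mdm2 and Ccng1, a cyclin G1 gene, belong to the negative feedback on p53. Phlda3 restrains the kinase Akt and Sesn2 restrains mTORC1 under stress. Eda2r encodes a receptor of the tumor necrosis factor family that binds ectodysplasin A2, and Trp53inp1 and Aen act in cell death, Aen as a nuclease. Zmat3 encodes a zinc finger protein that binds RNA and regulates splicing.

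The 10 genes lie on 8 chromosomes of GRCm39. Trp53 is at chr11:69469669-69482701 on the plus strand, Cdkn1a at chr17:29309936-29319701 on the plus strand, Mdm2 at chr10:117524780-117546730 on the minus strand and Ccng1 at chr11:40639377-40646148 on the minus strand. Phlda3 is at chr1:135693809-135697686 on the plus strand, Sesn2 at chr4:132219335-132237815 on the minus strand, Eda2r at chrX:96320270-96420847 on the minus strand and Zmat3 at chr3:32388941-32420163 on the minus strand. Trp53inp1 is at chr4:11156412-11175230 and Aen at chr7:78545602-78560957, both on the plus strand. Trp53 overlaps the antisense gene Wrap53 over 1483 bases and Ccng1 overlaps the antisense gene Nudcd2 over 3787 bases. All 4 were counted. The study's methods give default alignment settings and name no strand, and default counting for this kit keeps reads of the sense strand, so the counts of Trp53 and Ccng1 are uncertain only if another setting was used. Sesn2 overlaps the long noncoding RNA gene Gm12981 on the same strand over 6089 bases, and Gm12981 was not among the genes counted. Strand does not tell this pair apart, and the part of Gm12981 in the Sesn2 counts was not tested.

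The p53 response element is a run of 20 bases made of a pair of decamers, and it is what marks these genes as targets of p53 in textbook accounts. Matches with no spacer, the C and the G of each decamer core kept and at most 2 mismatches at the other bases were searched on both strands within 3000 bases of the annotated start of each gene in the GRCm39 reference sequence. Of the 10 genes, 4 held a match, against 6.12% of the 18953 genes searched the same way. With at most 1 mismatch the count was 3 members against 0.976% of genes, and with no mismatch it was 1 member against 0.127%. The 5 matches are shown 5′ to 3′ on the strand of the gene, with the 4 core bases of each decamer in capitals. A mismatch may lie at the inner pair of core bases.
Cdkn1a: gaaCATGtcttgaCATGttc
Ccng1, upstream: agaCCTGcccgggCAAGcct
Ccng1, intronic: acgCAAGcccgggCTAGtct
Zmat3: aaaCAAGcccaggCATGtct
Eda2r: gggCAAGtccgggCCTGtgt
The Cdkn1a element lies at chr17:29309902-29309921, has 1 mismatch and is centered 24 bases upstream of the annotated start. The upstream Ccng1 element lies at chr11:40646289-40646308 with its center 150 bases before the start, the intronic one lies at chr11:40645763-40645782 with its center 376 bases after it, and each has 1 mismatch. The Zmat3 element, at chr3:32418480-32418499, is intronic, 1674 bases after the start, and was the only member's match with 0 mismatches. The Eda2r element, at chrX:96420140-96420159, is intronic, 698 bases after the start, and has 2 mismatches. A match describes the letters in this window and was not tested for binding, and a gene without one may have elements elsewhere.

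The deposited matrices held 72338 nuclei, with 18487409 to 73211599 UMIs (unique molecular identifiers, 1 per counted RNA molecule) in a tumor, and 59907 nuclei were retained. Nuclei were sorted into classes by marker genes, with the 10 genes kept out of the sorting. These were tumor-like nuclei (37313), myocyte-like (8922), fibroblast-like (7146), endothelial-like (3034), macrophage-like (1809), smooth muscle-like (904) and osteoclast-like nuclei (779). The tumor-like nuclei were named from 8 CIC::DUX4 target genes, which made up 1.33 to 2.05% of their UMIs in every tumor, and 11 of their 12 clusters held over 90% of their nuclei from 1 tumor. Untreated tumor 1 and Minnelide tumor 2 stood apart, with 41.3% and 50.5% myocyte-like nuclei against 0.8 to 7.0% in the other 6 tumors. In untreated tumor 1, endothelial markers in tumor-like nuclei made up 0.386% of UMIs against 0.0467 to 0.0926% in the other 7 tumors, and S phase genes made up 0.0438% against 0.107 to 0.139%. Markers of several other classes were also highest in the tumor-like nuclei of that tumor, as given below. Untreated tumor 4 had the shallowest nuclei, with a median of 883 UMIs against 2329 to 4031 elsewhere. Each tumor's barcodes shared a constant pair of bases that recurred between the groups, and 4 of the 28 pairs of tumors shared 49 to 132 barcodes. Run and treatment cannot be told apart. Levels are given as CPM, the UMIs of a gene scaled in the usual way to all UMIs summed over the nuclei of a class in a tumor. Spread is the SD over tumors.

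In tumor-like nuclei none of the 10 genes passed the test between Minnelide and untreated tumors. Their CPM overlapped between the groups for 10 of 10 genes, where 6.69% of the 10618 genes with a mean of at least 5 CPM did not overlap. edgeR's quasi-likelihood test over 13033 genes called 0 members, and it called 0% of all genes, with 1165 genes at an unadjusted p under 0.05. DESeq2 called 84 genes, 0.645%, and 0 of the 10 members. The median log2 fold change was -0.001 over the members, with 5 of 10 higher in Minnelide tumors, and -0.004 over all genes tested. Scaling to library totals without TMM, the scaling that edgeR uses here, moved the median of all genes to -0.14, and the values below are relative to the TMM scale. The even split of the members holds on that scale only. In CPM the ratio of group means, Minnelide over untreated, was below 1 for every member except Aen. It ran from 0.721 for Phlda3 to 0.954 for Sesn2, and was 1.37 for Aen. The tumor-like sums held between 38 and 4355 UMIs of each member per tumor.

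**Figure D1:**
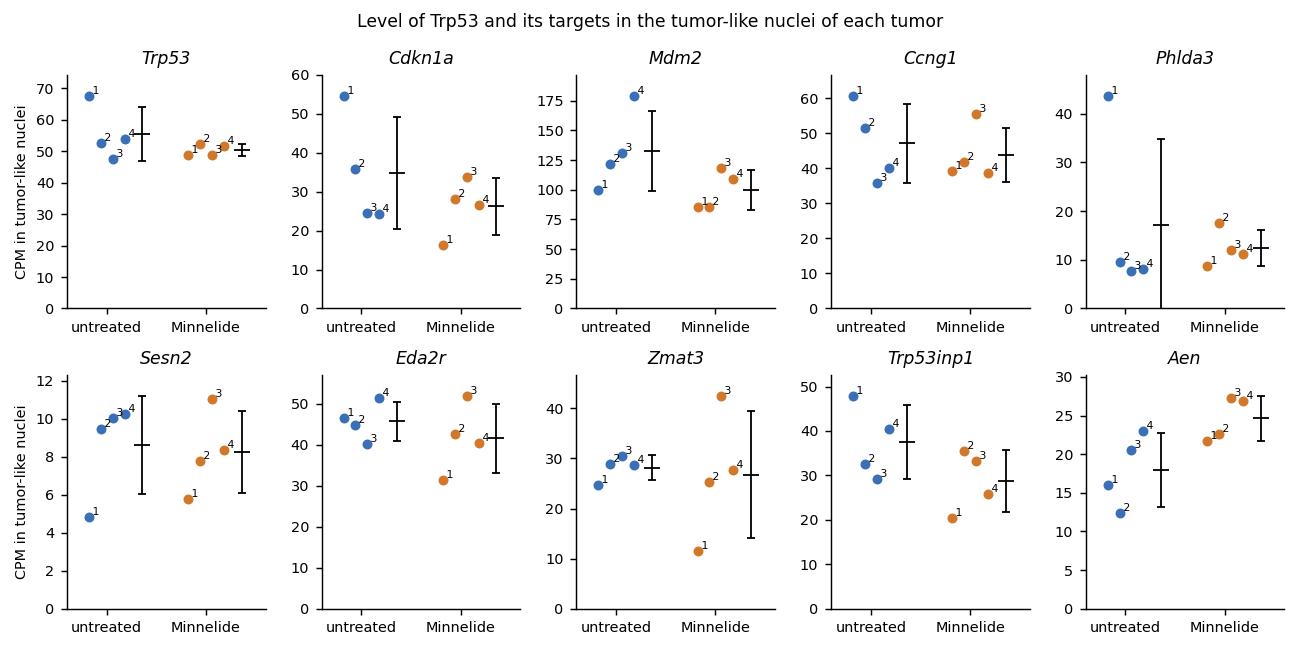
CPM of Trp53 and its 9 targets in the tumor-like nuclei of each tumor, with 1 point per tumor labeled by tumor number, and the mean and SD of each group of 4 as a bar. Untreated tumor 1 is the highest of the 8 tumors for Trp53, Cdkn1a, Ccng1, Phlda3 and Trp53inp1, and the groups overlap in all 10 panels.

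Trp53 itself was at 67.6, 52.5, 47.6 and 53.8 CPM in untreated tumors 1 to 4 and at 48.7, 52.3, 48.9 and 51.6 CPM in Minnelide tumors 1 to 4. The Minnelide tumors lay within 4 CPM of each other, inside the untreated range. Its log2 fold change was 0.003 ± 0.11 (SE), with a 95% interval of -0.25 to 0.25 (edgeR adjusted p = 0.993). This is the narrowest interval of the 10 genes.

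Cdkn1a, the arrest gene, was at 54.6, 35.7, 24.5 and 24.1 CPM in the untreated tumors and at 16.4, 28.1, 33.8 and 26.6 CPM in the Minnelide tumors. Minnelide tumor 1 was the lowest and untreated tumor 1 the highest of the 8. The log2 fold change was -0.25 with an interval of -0.91 to 0.42 (edgeR adjusted p = 0.783).

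Mdm2, the feedback ligase, was at 99.4, 121.5, 131.0 and 179.1 CPM in the untreated tumors. In the Minnelide tumors it was at 85.7, 85.6, 118.1 and 109.4 CPM. Minnelide tumors 1 and 2 lay below all untreated tumors and the other two lay inside the untreated range, with means of 132.8 ± 33.6 and 99.7 ± 16.6 CPM. The log2 fold change was -0.30, with an interval of -0.83 to 0.24 (edgeR adjusted p = 0.683). Ccng1, the other feedback gene, was at 60.7, 51.6, 35.9 and 40.1 CPM untreated and at 39.3, 41.9, 55.4 and 38.8 CPM with Minnelide, a log2 fold change of 0.04 (interval -0.37 to 0.45, edgeR adjusted p = 0.952).

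Aen, the nuclease gene, had the largest fitted log2 fold change in either direction on the TMM scale. Its CPM was 16, 12.4, 20.5 and 23.0 in the untreated tumors and 21.7, 22.6, 27.3 and 26.9 in the Minnelide tumors. Untreated tumor 4 lay above Minnelide tumors 1 and 2, and the other untreated tumors lay below all Minnelide tumors. The means were 18 ± 4.7 and 24.6 ± 2.9 CPM. In CPM without TMM the ratio of the group means was, on the log2 scale, farther from 1 for Phlda3 than for Aen, at 0.721 and 1.37. The log2 fold change was 0.58 ± 0.23 (SE), with an unadjusted 95% interval of 0.04 to 1.12 and an adjusted p of 0.551 by edgeR, so it did not pass the test. It stayed above 0 under all alternatives run, from 0.45 to 0.73, with adjusted p from 0.322 to 0.909.

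For Phlda3, the Akt repressor gene, 1 tumor decided the direction of the fold change. It was at 43.7 CPM in untreated tumor 1 and at 9.5, 7.6 and 8.0 CPM in untreated tumors 2 to 4. The Minnelide tumors were at 8.8, 17.6, 12 and 11.2 CPM. The log2 fold change was -0.28 with an interval of -1.54 to 0.99 (edgeR adjusted p = 0.877), the widest of the 10, and it was 0.63 (adjusted p = 0.579) without untreated tumor 1. Sesn2, the mTORC1 inhibitor gene, went the other way in that tumor, at 4.8 CPM against 9.5, 10.0 and 10.2 CPM in untreated tumors 2 to 4 and 5.8, 7.8, 11 and 8.3 CPM in the Minnelide tumors. Its log2 fold change was 0.04 (interval -0.74 to 0.83, edgeR adjusted p = 0.974), and it was -0.18 without untreated tumor 1.

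The remaining targets also overlapped. Eda2r, the ectodysplasin receptor gene, was at 46.6, 44.8, 40.1 and 51.5 CPM untreated and at 31.3, 42.7, 51.9 and 40.4 CPM with Minnelide. It is X-linked, and untreated tumor 4, its highest untreated tumor, had 0.00134% of UMIs from 4 Y-linked genes against 0.0513 to 0.0772% in the other 7, whose part in the levels was not tested. Zmat3, the splicing regulator gene, was within 24.6 to 30.4 CPM in the untreated tumors, while the Minnelide tumors spread from 11.5 CPM in tumor 1 through 25.2 and 27.8 CPM in tumors 2 and 4 to 42.4 CPM in tumor 3. Trp53inp1, which promotes p53-dependent cell death, was at 47.8, 32.6, 29.3 and 40.5 CPM untreated and at 20.4, 35.5, 33.3 and 25.7 CPM with Minnelide. The log2 fold changes were -0.01 for Eda2r, 0.05 for Zmat3 and -0.25 for Trp53inp1, with intervals of -0.41 to 0.40, -0.77 to 0.87 and -0.72 to 0.23 (edgeR adjusted p = 0.992, 0.972 and 0.702). Summed over the 9 targets the untreated tumors held 329.3 to 405.4 CPM and the Minnelide tumors 240.9 to 385.2 CPM. In endothelial-like nuclei the same sum did not overlap, at 394.3, 304.4, 301.2 and 300.3 CPM untreated and at 257.7, 298.1, 288.5 and 274.8 CPM with Minnelide, and it was not tested. The nearest tumors of the groups were at 300.3 and 298.1 CPM, and the sum overlapped in every other class. Of single genes in endothelial-like nuclei 5.48% did not overlap.

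**Figure D2:**
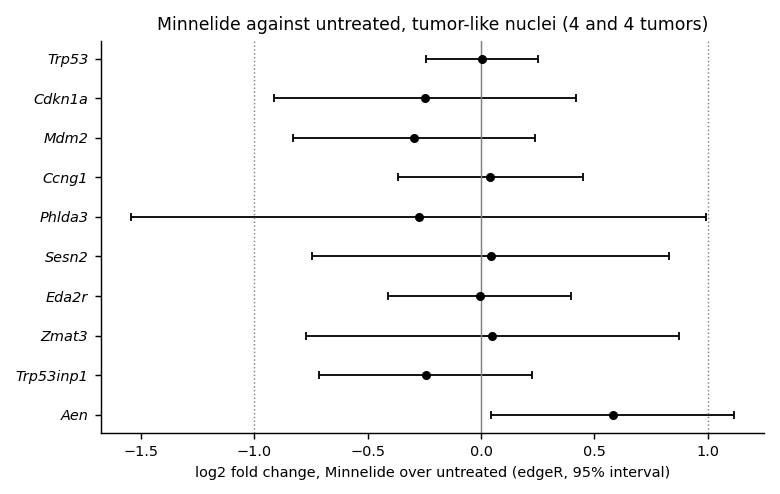
Log2 fold change of each gene in tumor-like nuclei, Minnelide over untreated, over 4 and 4 tumors (points, edgeR) with unadjusted 95% intervals, and dotted lines at a 2-fold change in each direction. Aen, at 0.58, is the only gene whose interval leaves out 0, and the intervals of Phlda3 and Aen reach past a dotted line.

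The intervals set what these 8 tumors can show. For 8 of the 10 genes the unadjusted 95% interval lay within a 2-fold change in each direction. Phlda3 reached past it on the lower side and Aen on the upper side. The share of nuclei with at least 1 UMI of a gene was also compared, as the exact share expected if each nucleus were thinned to 1000 UMIs. The expected share for Mdm2 was 12% ± 2.2 of untreated and 9.5% ± 1.5 of Minnelide tumor-like nuclei (exact two-sided permutation test, p = 0.114, adjusted p = 0.571). For Aen it was 1.80% ± 0.46 and 2.51% ± 0.33 (exact permutation p = 0.0857, adjusted p = 0.571). These were the smallest p values of the 10 genes, and the smallest that the 70 splits of 4 against 4 tumors allow is 0.0286. Without thinning, Mdm2 was seen in 18.5 to 46.0% of the untreated and 21.2 to 34.6% of the Minnelide tumor-like nuclei. Untreated tumor 4 lost 5793 of its 8373 tumor-like nuclei to the 1000 UMI limit, and a background share from free RNA could not be set, since no class present here is known to lack these transcripts.

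In the whole tumors, with all retained nuclei summed, edgeR again called 0 of 10 members and 0% of 13811 genes, with 1349 genes at an unadjusted p under 0.05. DESeq2 called 181 genes, 1.31%, and 0 members. Adjusted p for the members ran from 0.534 to 0.990. The groups overlapped for 10 of 10 genes, where 7.4% of genes did not. Phlda3 was at 73.3 CPM in untreated tumor 1 and 64.9 CPM in Minnelide tumor 2, the tumors richest in myocyte-like nuclei, and at 10.3 to 12.9 CPM in the other 6, and the part of the myocyte-like nuclei in this difference was not tested.

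The other classes were tested for the Minnelide comparison in the same way, and no member passed in any of them by edgeR or DESeq2. Sums of fewer nuclei left 10 members testable in fibroblast-like and endothelial-like nuclei, 9 in myocyte-like, 8 in macrophage-like and smooth muscle-like and 4 in osteoclast-like nuclei, and edgeR called 0% and DESeq2 at most 0.617% of all genes in each. At an unadjusted p under 0.05 edgeR found 278 to 998 genes. In macrophage-like nuclei Aen was at 17.4, 9.2, 20.6 and 15.5 CPM untreated and at 22.1, 21.3, 31.7 and 28.0 CPM with Minnelide, groups that did not overlap, as in 3.61% of genes in that class (log2 fold change 0.75, edgeR adjusted p = 0.75). In endothelial-like nuclei Zmat3 was at 27.6, 36.4, 34.0 and 34.9 CPM untreated and at 24, 27.5, 25.7 and 27.3 CPM with Minnelide. These groups did not overlap either, as in 5.48% of genes in that class. No other member was free of overlap in any of the 7 classes.

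Unadjusted edgeR p fell under 0.05 for Trp53inp1 in fibroblast-like nuclei, with a log2 fold change of -0.49, and for Cdkn1a in myocyte-like nuclei at -1.39. It also did so for both genes in smooth muscle-like nuclei, at -0.91 for Trp53inp1 and -1.32 for Cdkn1a. The adjusted p values were 0.943, 0.519, 0.998 and 0.998, so none of these passed. Untreated tumor 1 was the highest untreated tumor for both genes in fibroblast-like and smooth muscle-like nuclei. Smooth muscle-like nuclei were compared over 3 Minnelide tumors, because Minnelide tumor 4 held 14 of them. The difference between the Minnelide effect in tumor-like and in fibroblast-like nuclei was tested as an interaction with the tumor as a block, and 0 of 10 members passed (edgeR adjusted p from 0.935 to 0.992), with 0% of 12392 genes called.

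Levels of the 10 genes were compared between tumor-like nuclei and each other class within the same tumors, and the counts are set beside the share of all genes that passed. Against fibroblast-like nuclei 3 members were higher and 2 lower, where 25.5% and 24.8% of all genes tested were called in these directions, 50.3% in all. Against myocyte-like nuclei 1 member was higher and 5 lower, where 25.2% and 21.2% of genes were, 46.4% in all. Against endothelial-like nuclei 2 members were higher and 2 lower, where 23% and 24.4% were, 47.5% in all. Against macrophage-like nuclei 1 member was higher and 0 lower (21.6% and 19% of genes, 40.5% in all), and against osteoclast-like nuclei 1 was higher and 1 lower (23.5% and 19.9%, 43.5% in all). Against smooth muscle-like nuclei 1 member was higher and 0 lower (12.8% and 13%, 25.8% in all). These shares of 10 genes were not tested against the background. The median log2 fold change of the members was -0.30 against myocyte-like nuclei, where that of all genes was 0.07, and 0.33 against osteoclast-like nuclei, where that of all genes was 0.11. In the other 4 comparisons it lay between 0.06 and 0.12, and that of all genes between 0.02 and 0.08.

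Eda2r was the gene that passed against all 6 classes. It was at 173 ± 48.2 CPM in myocyte-like nuclei, where the 8 tumors spanned 84.7 to 226 CPM with no overlap with any other class. Tumor-like nuclei came next at 43.6 ± 6.7 CPM, with 31.3 to 51.9 CPM over the tumors. The means then ran through macrophage-like (31.4 ± 15.4 CPM), smooth muscle-like (29.8 ± 14.2 CPM), fibroblast-like (25.5 ± 6.2 CPM) and endothelial-like (21.3 ± 7.0 CPM) to osteoclast-like nuclei (18.3 ± 9.9 CPM). Ranges of neighbors in this order overlapped from the tumor-like class down.

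Tumor-like nuclei had 1.97 lower log2 Eda2r than myocyte-like nuclei, in 8 of 8 tumors (edgeR adjusted p = 2.44e-06), and higher Eda2r than each of the other 5 classes. The log2 fold changes were 0.78 over fibroblast-like (adjusted p = 0.000334) and 0.99 over endothelial-like nuclei (8.56e-05), each higher in 8 of 8 tumors. Over osteoclast-like nuclei it was 1.40 (0.000252, 8 of 8 tumors). Over macrophage-like nuclei it was 0.73 (0.0265, 6 of 8 tumors) and over smooth muscle-like nuclei 0.77 (0.0269, 5 of 7 tumors). The last pair rest on single tumors. Over macrophage-like nuclei the edgeR adjusted p was 0.0504 without untreated tumor 2, 0.0556 without untreated tumor 3 and 0.0535 without Minnelide tumor 2. Over smooth muscle-like nuclei it was 0.0685 without untreated tumor 3, 0.0551 without Minnelide tumor 1 and 0.0763 without Minnelide tumor 3.

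**Figure D3:**
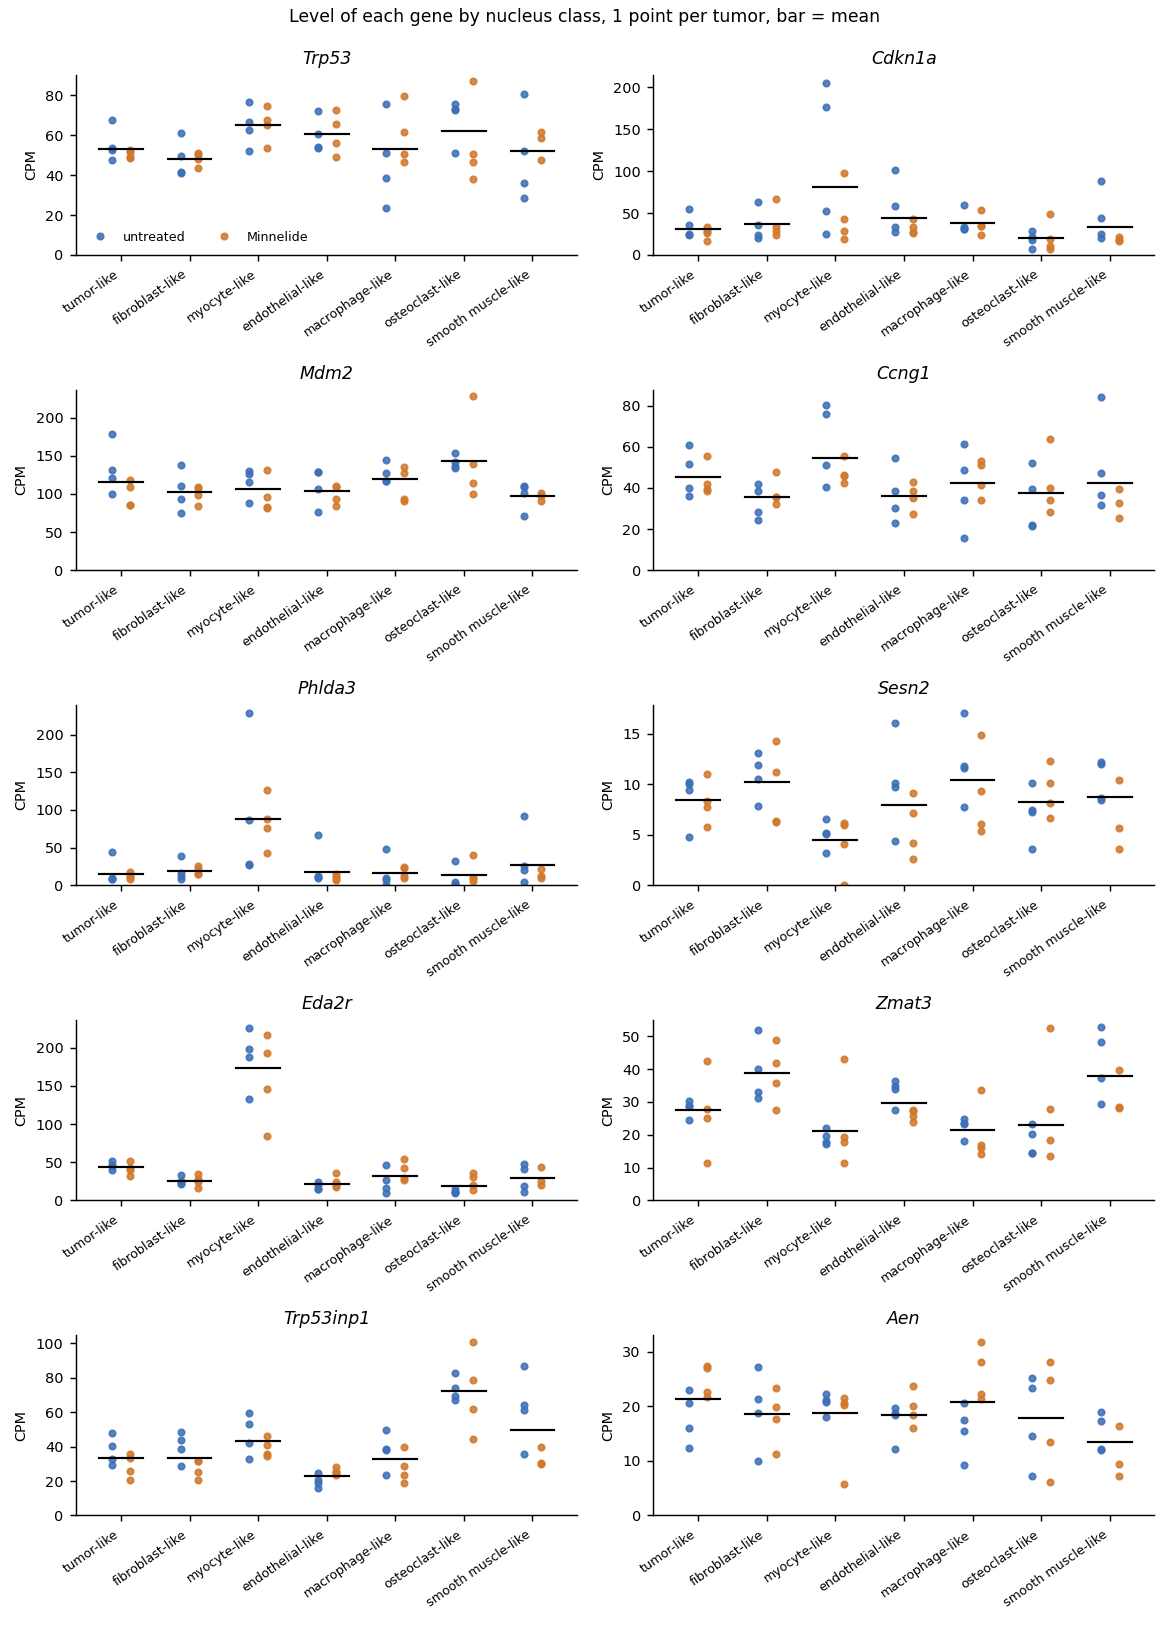
CPM of each gene by nucleus class, with 1 point per tumor (untreated left, Minnelide right in each class) and the mean over tumors as a bar. Eda2r and Phlda3 are highest in myocyte-like nuclei, with means of 173 and 87.9 CPM, and Trp53inp1 is highest in osteoclast-like nuclei, with a mean of 72.3 CPM.

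Phlda3 was also highest in myocyte-like nuclei, at 87.9 ± 66.1 CPM, with a lowest tumor of 27.3, a median of 81.4 and a highest of 228 CPM. Means in the other 6 classes were 13.1 to 26.3 CPM. Tumor-like nuclei had 2.53 lower log2 Phlda3 than myocyte-like nuclei in 8 of 8 tumors (edgeR adjusted p = 9.87e-07), and 0.47 lower than fibroblast-like nuclei in 7 of 8 (adjusted p = 0.0114, and 0.115 at a clustering resolution of 2.0). Cdkn1a was at 80.8 ± 72.6 CPM in myocyte-like nuclei and ranged from 18.5 CPM in Minnelide tumor 3 to 205 CPM in untreated tumor 2. The tumor-like level of Cdkn1a, 30.5 ± 11.4 CPM, was 1.1 lower on the log2 scale in 7 of 8 tumors (adjusted p = 0.0115), and 0.51 lower than the endothelial-like level in 6 of 8 tumors (adjusted p = 0.00457). The high endothelial markers among the tumor-like UMIs of untreated tumor 1 were given above, and their part in the Cdkn1a contrast was not tested. Of the 8922 myocyte-like nuclei, 2455 formed a cluster, 99.5% from untreated tumor 1, in which markers of several other classes were raised as well. Without that tumor the log2 fold changes against myocyte-like nuclei were -2.62 for Phlda3, -2.10 for Eda2r and -1.07 for Cdkn1a (edgeR adjusted p = 1.87e-07, 2.46e-07 and 0.0349).

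Trp53inp1 had its highest level in osteoclast-like nuclei, at 72.3 ± 16.3 CPM with a range of 44.6 to 100.5 CPM. Smooth muscle-like (49.7 ± 21.6 CPM) and myocyte-like nuclei (43.1 ± 9.4 CPM) followed, with ranges that overlapped each other. Fibroblast-like, tumor-like and macrophage-like means were 33.6, 33.1 and 32.7 CPM, and endothelial-like nuclei were lowest at 22.8 ± 4.0 CPM. Tumor-like nuclei had 1.05 lower log2 Trp53inp1 than osteoclast-like nuclei in 8 of 8 tumors (edgeR adjusted p = 4.13e-05) and 0.42 lower than myocyte-like nuclei in 8 of 8 (adjusted p = 0.0164). Zmat3 was 0.53 lower on the log2 scale in tumor-like than in fibroblast-like nuclei in 8 of 8 tumors, at 27.5 ± 8.5 against 38.8 ± 8.6 CPM (adjusted p = 0.0182, and 0.0503 without untreated tumor 4).

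Trp53 and Ccng1 differed by less. Trp53 means lay between 48.2 CPM in fibroblast-like and 64.8 CPM in myocyte-like nuclei, and the ranges of all 7 classes overlapped over the tumors. Tumor-like nuclei had 0.15 higher log2 Trp53 than fibroblast-like nuclei (8 of 8 tumors, edgeR adjusted p = 0.0462), 0.31 lower than myocyte-like nuclei (8 of 8, 0.0205) and 0.24 lower than endothelial-like nuclei (7 of 8, 0.0197). These 3 calls rest on single tumors. The first was lost without untreated tumor 2, untreated tumor 4, Minnelide tumor 1, Minnelide tumor 3 or Minnelide tumor 4 (Trp53 adjusted p = 0.0722, 0.0885, 0.0624, 0.0982 and 0.0654), the second without untreated tumor 4 (0.0548) and the third without Minnelide tumor 1 or Minnelide tumor 4 (0.0614 and 0.0568).

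Ccng1 was 0.38 higher on the log2 scale in tumor-like than in fibroblast-like nuclei (8 of 8 tumors, edgeR adjusted p = 0.001) and 0.28 higher than in endothelial-like nuclei (8 of 8, 0.0226). The second was lost without untreated tumor 2 or Minnelide tumor 4 (Ccng1 adjusted p = 0.0506 and 0.0559). Its myocyte-like level, 54.8 ± 15.2 CPM against 45.5 ± 9.1 CPM in tumor-like nuclei, did not pass (log2 fold change -0.30, adjusted p = 0.0513, and -0.35 with 0.0342 without untreated tumor 1). Sesn2 was lowest in myocyte-like nuclei, at 4.5 ± 2.1 CPM, against 8.4 ± 2.2 CPM in tumor-like nuclei (log2 fold change 0.66, adjusted p = 0.0296, 7 of 8 tumors). This call was lost when any of 6 tumors was left out, untreated tumors 1 to 4 and Minnelide tumors 2 and 3, with Sesn2 adjusted p from 0.0526 to 0.0874. The myocyte-like sum of Minnelide tumor 4 held 0 UMIs of Sesn2 among 174766, which allows up to 17.2 CPM.

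Mdm2 and Aen passed in none of the 6 class comparisons. Mdm2 means ran from 97.2 CPM in smooth muscle-like to 143.6 CPM in osteoclast-like nuclei, with 116.2 ± 30.3 CPM in tumor-like nuclei, and its log2 fold changes were between -0.23 and 0.28. Aen means ran from 13.4 CPM in smooth muscle-like to 21.3 ± 5.1 CPM in tumor-like nuclei, with log2 fold changes between -0.01 and 0.58. All classes overlapped for both genes.

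**Figure D4:**
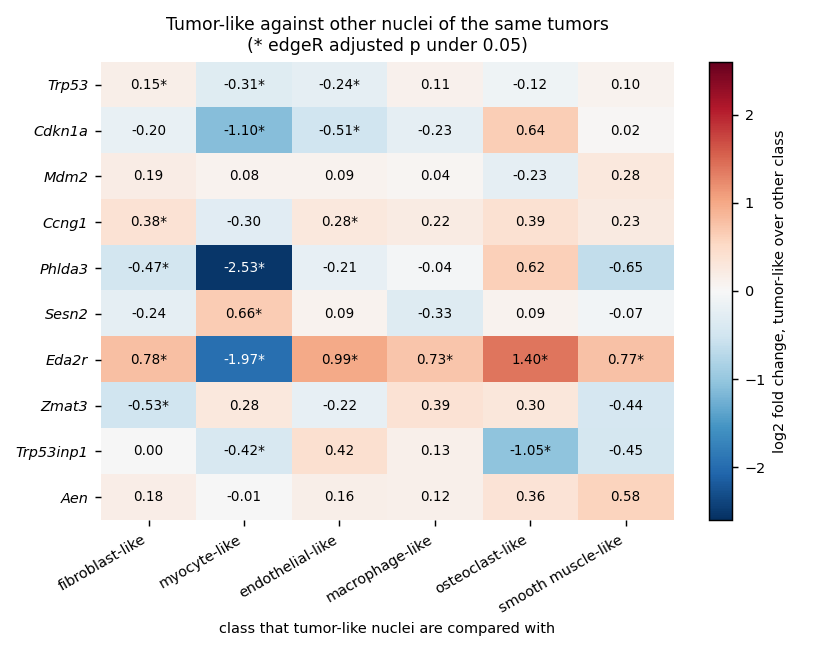
Log2 fold change of each gene, tumor-like over each other class within tumors (color and number), with an asterisk where the edgeR adjusted p over all genes was under 0.05. Eda2r carries an asterisk in all 6 columns, Mdm2 and Aen in none, and myocyte-like nuclei have the most, for 6 genes.

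The tumors differed among themselves in a way that ran across classes. Among the untreated tumors, tumor 1 was the highest in 7 of 7 classes for Phlda3 and Trp53inp1 and in 6 of 7 for Cdkn1a and Trp53, and it was the lowest in 5 of 7 classes for Mdm2, Sesn2 and Zmat3. How often this tumor was highest or lowest over all genes was not counted, and the classes of a tumor are not separate observations. Phlda3 there was at 38.5 CPM in fibroblast-like, 66.2 in endothelial-like, 91.8 in smooth muscle-like and 228 CPM in myocyte-like nuclei. Among the Minnelide tumors, tumor 2 was the highest in 6 of 7 classes for Phlda3. Eda2r, which with Phlda3 was highest in myocyte-like nuclei, was the highest untreated value in 0 of 7 classes of tumor 1, with 21.5 CPM in its fibroblast-like and 11.2 CPM in its smooth muscle-like nuclei. In its tumor-like nuclei myocyte markers made up 0.692% of UMIs against 0.046 to 0.584% in the other tumors, macrophage markers 0.0991% against 0.0133 to 0.0364% and immediate early genes 0.0753% against 0.0237 to 0.0431%. B cell markers made up 0.0164% there against at most 0.000674% elsewhere, and T and NK cell markers 0.0141% against at most 0.00169%. Smooth muscle, satellite cell, neutrophil and adipocyte markers were also highest in this tumor, whereas tumor, fibroblast, pericyte and dendritic markers were lowest. Osteoclast and Schwann cell markers lay inside the range of the other tumors. Of the 13 myocyte markers, 12 macrophage markers and 17 immediate early genes, none was at 0 in tumor-like nuclei of any tumor. The part of these lists in the levels of the members was not tested.

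Several of these genes act on the cell cycle, and tumor-like nuclei were therefore split by the UMIs of S and G2M phase genes after thinning to 1000 UMIs. Nuclei with at least 3 such UMIs were called cycling and those with 0 noncycling. Cycling nuclei made up 11.3% of the sorted nuclei in untreated tumor 1 and 38.9 to 58.5% in the other tumors, and 34.3 to 46.9% of nuclei lay between the limits. None of the 10 members passed the test within tumors, where 7.54% of 10882 genes did, 5.03% higher and 2.51% lower in cycling nuclei (edgeR, with Cdkn1a, Zmat3 and Trp53inp1 at an unadjusted p under 0.05). Trp53inp1 had the smallest adjusted p, 0.082, with a log2 fold change of -0.23 and a lower level in cycling nuclei in 6 of 8 tumors. Cdkn1a, the inhibitor of the cycle, was at 29.0 ± 14 CPM in cycling and 34.2 ± 11.8 CPM in noncycling nuclei, with a log2 fold change of -0.20 (adjusted p = 0.218) and a lower level in 6 of 8 tumors. Without untreated tumor 1 it was -0.31, with an adjusted p of 0.0474. The median log2 fold change was -0.13 over the members and -0.02 over all genes tested.

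The rest of the pathway was followed with 3 lists, and none of their genes passed the Minnelide comparison in tumor-like nuclei. Of 15 regulators of p53 and damage kinases 14 were tested, and 9 had a higher and 5 a lower fitted level in the Minnelide tumors (median log2 fold change 0.10). Of 27 counted targets that act in arrest, repair and metabolism 12 had a higher fitted level (median -0.02), and of 13 targets that act in cell death 7 did (median 0.11). The same count over all genes was 49.6% higher, with the median given above. The smallest p values in each direction belonged to the kinase gene Atr and to Ei24 on the higher side and to Btg2, an antiproliferative gene, and Dram1, a gene of p53-induced autophagy, on the lower side.

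Atr was at 98.8, 96.0, 87.5 and 95.5 CPM untreated and at 125.0, 105.8, 100.7 and 101.3 CPM with Minnelide (log2 fold change 0.33, edgeR adjusted p = 0.551). Each Minnelide tumor was above each untreated tumor, and 6.69% of genes in these nuclei did not overlap in one direction or the other. Btg2 was at 241.7 CPM in untreated tumor 1, at 19.2, 13.4 and 37.6 CPM in untreated tumors 2 to 4 and at 11.8, 21.5, 12.7 and 9.9 CPM with Minnelide (log2 fold change -2.24, edgeR adjusted p = 0.551). Untreated tumor 1 is also the tumor with the most UMIs from immediate early genes, whose part in Btg2 was not tested. Dram1 was at 44.4 CPM in that tumor, at 12.7, 9.2 and 13.6 CPM in the other untreated tumors and at 7.3, 11.5, 6.0 and 5.4 CPM with Minnelide (log2 fold change -1.23, edgeR adjusted p = 0.551). Ei24 was at 44.7, 41.2, 45.8 and 50.5 CPM untreated and at 51.0, 45.9, 61.3 and 52.8 CPM with Minnelide (log2 fold change 0.34, edgeR adjusted p = 0.552). Without untreated tumor 1 the log2 fold changes of Btg2 and Dram1 were -0.66 and -0.59.

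Between classes the same lists held called genes in both directions, and each count stands beside the share of all genes called. Against fibroblast-like nuclei, where 25.5% of all genes were higher and 24.8% lower, tumor-like nuclei had 7 higher and 1 lower of 14 regulators, with Chek1 at 0.61 and Chek2 at 0.77 on the log2 scale. Of the 27 arrest and repair genes 8 were higher and 5 lower, with the nucleotide excision repair gene Ddb2 at 0.78 and the mitotic gene Ckap2 at 0.63 against the kinase gene Ak1 at -1.16 and the mTORC1 inhibitor gene Ddit4 at -1.39. Of 12 cell death genes 5 were higher and 2 lower, and the 2 lower ones were the autophagy gene Dram1 at -2.91 and the death receptor gene Fas at -2.50. The edgeR adjusted p of these named genes was 0.00145 for Ddit4 and lower for the others.

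Against myocyte-like nuclei, where 25.2% of all genes were higher and 21.2% lower, 10 arrest and repair genes were higher and 10 lower of 27, 5 regulators were higher and 2 lower of 14, and 3 death genes were higher and 0 lower of 12. The apoptosome gene Apaf1 was 1.17 higher, the translesion polymerase gene Polk 0.98 higher and Chek2 1.26 higher on the log2 scale. The p53 relative Trp63 was the lowest, at a mean of 10.6 CPM in tumor-like against 649.0 CPM in myocyte-like nuclei (log2 fold change -6.56). Tigar, a gene of sugar metabolism, was 2.00 lower and Sesn1, the sestrin 1 gene, 1.54 lower. Sesn1 and Sesn2 thus differed in opposite directions between these classes, with the Sesn2 call resting on single tumors as given above.

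Against endothelial-like nuclei, where 23% of all genes were higher and 24.4% lower, 7 arrest and repair genes were higher and 7 lower of 26. There 6 regulators were higher and 1 lower of 14, and 2 death genes were higher and 5 lower of 12. By rank, Ddb2 (0.99), Mdm4 (0.35), Chek2 (0.44) and Atm (0.36) were named as higher in tumor-like nuclei. Trp53i11 (-3.13), Sat1 (-2.15), Ddit4 (-1.39) and the death receptor gene Tnfrsf10b (-0.97) were named as lower. Against macrophage-like nuclei, where 21.6% and 19% of all genes were higher and lower, 6 and 4 of 26 arrest and repair genes were. So were 3 and 1 of 14 regulators and 1 and 3 of 12 death genes. Against osteoclast-like nuclei, where 23.5% and 19.9% of all genes were, 10 and 3 of 25 arrest and repair genes were. So were 3 and 3 of 14 regulators and 3 and 2 of 12 death genes. Macrophage-like nuclei had more of the polyamine gene Sat1 (-1.30), Dram1 (-1.85), the kinase gene Hipk2 (-1.01) and Rap2b (-1.39), and osteoclast-like nuclei more Hipk2 (-1.73), Dram1 (-1.82), Sat1 (-0.77) and Prkdc (-0.51). Tumor-like nuclei had more Epha2 than macrophage-like (0.78) and osteoclast-like nuclei (1.08), and more Ckap2 than both (0.55 and 1.15). Ddb2 and Mdm4 were also higher than in macrophage-like nuclei (0.53 and 0.36), and Apaf1 and Ei24 higher than in osteoclast-like nuclei (0.61 and 0.59). Against smooth muscle-like nuclei 7 genes were higher and 2 lower over the 3 lists, where 12.8% and 13% of all genes were, led by Trp53bp1 (0.51) and Fas (-1.89). By list these were 3 higher and 0 lower of 26 arrest and repair genes, 3 and 1 of 14 regulators and 1 and 1 of 11 death genes. Ddb2 (0.45), Usp7 (0.33), Epha2 (0.62) and Hipk2 (-0.64) also passed there, and each lost its call without at least 3 of the 7 single tumors.

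In cycling against noncycling tumor-like nuclei 5 genes of the lists were higher and 1 lower, where 5.03% and 2.51% of all genes were. By list these were 3 higher and 1 lower of 26 arrest and repair genes, 2 and 0 of 14 regulators and 0 of 12 death genes. Those named by rank were Ckap2 (1.12), a mitotic gene, Chek2 (0.52), the translesion polymerase gene Polh (0.43) and Cdkn2a (0.41), which encodes an inhibitor of Mdm2, and the lower one was Abhd4 (-0.42). Cdkn2a lost its call without untreated tumor 3 or Minnelide tumor 3 and Abhd4 without any of 7 tumors.

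The pattern of Cdkn1a over 54 sums of tumor and class (each of at least 50 nuclei) was most like that of Psmc1 (Pearson r = 0.757), Selenow (0.740), Mt2 (0.740), Aldoa (0.733) and Psma4 (0.729) among 11191 genes, on log2(CPM + 1). Phlda3 ranked 16th, with r = 0.699, and Ccng1 153rd, with r = 0.602. Among the genes most like Mdm2 were Ap3d1 (0.723), Tfrc (0.666), Zfx (0.653) and Srcap (0.640). Mdm2 and Cdkn1a, a pair of p53 targets, had r = -0.155 with each other. The 54 sums share 8 tumors and their depth, so these values describe the sums and carry no test.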

How the data were processed

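Single-nucleus RNA-seq (10x Chromium) was available as 8 matrices, 4 for each of 2 groups. Each matrix was taken as a tumor, since the series design gives 4 tumors per group, and as the unit of replication. The labels do not state whether the tumors came from separate mice, so p-values measure the spread between these tumors. The authors deposited raw UMI counts for each gene in each nucleus. Per the file headers they were made with Cell Ranger 9.0.1, whereas the submitters' processing notes name Cell Ranger 7.0.1 and bcl2fastq 2.20 on mm39 (GRCm39). Per the study's methods intronic reads were counted. Per the study, the sequenced Minnelide tumors were ones that had responded either well or poorly to the drug. File names carry words on response that the labels lack, and no comparison used them. The part of response in the spread of the Minnelide group was not tested.

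Nuclei were removed if a mixture fit to the mitochondrial share put them at 0.75 or more probability in the damaged component, or if they had under 200 genes. The nuclei with the highest doublet scores (scanpy 1.11.5, 0.8% per 1000 nuclei) were removed too. The rest were clustered (2000 genes, 30 components, 40 neighbors, Leiden with igraph 0.11.9 at resolution 1.0), without the members, markers and CIC::DUX4 targets. Clusters were named from marker lists, inside each tumor. A marker was raised at 1.5-fold over the 10th percentile cluster with 20 CPM added, and a name needed at least 3. The rule on leading genes was changed after clusters had been seen and before any member was compared: its first version left a large cluster unnamed that had all tumor markers raised. A cluster of untreated tumor 1 named myocyte-like had raised markers of several classes. No immune class beyond macrophages and osteoclasts was named.

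UMIs were summed per tumor and class, with at least 20 nuclei in each sum, and tested with edgeR 4.0.16 (TMM, quasi-likelihood, Benjamini-Hochberg over all genes tested, threshold 0.05) in R 4.3.3. Class and cycling comparisons had the tumor as a block. DESeq2 1.42.0 was an alternative. The edgeR fits of the Minnelide comparison in tumor-like nuclei and of tumor-like against myocyte-like nuclei were checked on simulated counts, and the other comparisons were not simulated. Shares of nuclei used exact permutation tests over 10 genes. Intervals of fold changes come from the edgeR fits over tumors, and the limits that a count of 0 allows cover counting error only. Gene positions and sequences came from GENCODE M39 on GRCm39.

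The members, lists and tests were chosen with earlier results of these data known. The text names the 10 members, the listed genes that passed (at most 4 per direction by p, or 2 where none passed) and the 5 genes most like Cdkn1a and Mdm2, of which 1 is not reported here.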

Additional observations from a re-analysis of the deposited data

Results flagged for a closer look

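In 12 of 150 groups of 4 tumors, 1 tumor's gap to the nearest of the others exceeded Dixon's 95% critical value as a share of the group's range. Chance gives about 1 in 20 groups, and the groups share tumors. Untreated tumor 1 accounted for 6 of the 12.

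In untreated tumor 1, Phlda3 was at 43.7 CPM in tumor-like nuclei (7.61 to 9.52 CPM in the other untreated tumors), at 66.2 CPM in endothelial-like nuclei (9.38 to 12.4 CPM) and at 32.4 CPM in osteoclast-like nuclei. There the other untreated tumors were at 4.34, 2.12 and 0 CPM, the last being 0 UMIs of 275170, which allows up to 10.9 CPM. The expected share of its tumor-like nuclei with Phlda3 at 1000 UMIs was 5.23%, against 0.727 to 1.18%. Sesn2 was low in its tumor-like nuclei, at 4.81 CPM (9.45 to 10.2 CPM), and Cdkn1a high in its macrophage-like nuclei, at 59.6 CPM (31.1 to 33.9 CPM).

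In untreated tumor 4, Trp53 was at 50.9 CPM in osteoclast-like nuclei, against 72.4 to 75.6 CPM. In the Minnelide group, Phlda3 was at 40.2 CPM in the osteoclast-like nuclei of tumor 2 (6.08 to 10.2 CPM), Aen at 5.72 CPM in the myocyte-like nuclei of tumor 4 (20.2 to 21.5 CPM), and Zmat3 at 33.7 CPM in the macrophage-like nuclei of tumor 3 (14 to 16.8 CPM). Among shares of tumor-like nuclei at 1000 UMIs, Trp53 was at 5.32% in tumor 2 (5.01 to 5.03%) and Ccng1 at 5.76% in tumor 3 (3.96 to 4.18%).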

How the results depend on the processing

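Of 288 recomputed counts of members called, 269 stayed within 1.5 times the value reported, and the count for the Minnelide comparison was 0 in every class under every alternative run. In the main fits of that comparison edgeR called 0% of all genes, so a count that stayed 0 there says little of stability. All counts that moved further belonged to the class and cycling comparisons. Against fibroblast-like nuclei the count was 3 at resolution 2.0 and 3 to 6 with a tumor left out. Against endothelial-like nuclei it was 7 without the filter on nuclei. Against macrophage-like nuclei it was 0 without TMM and 0 without the 2 tumors richest in myocyte-like nuclei, an alternative added after seeing the data, and 0 to 2 with a tumor left out. Against smooth muscle-like nuclei it was 2 without TMM, 2 with doublets kept and 0 to 2 with a tumor left out, and against osteoclast-like nuclei 2 to 4 with a tumor left out. For cycling nuclei it was 1 with doublets kept (Trp53inp1), 1 at resolution 2.0 (Cdkn1a) and 0 to 1 with a tumor left out. Of 19 called class differences, 10 kept their call under all alternatives and none turned direction. Beside left-out tumors, Trp53 lost its call against fibroblast-like nuclei without TMM (adjusted p = 0.0959), without the filter on nuclei (0.0609), at resolution 2.0 (0.254) and without the 2 myocyte-rich tumors (0.0680), against myocyte-like nuclei with no filter on low counts (0.0651) and against endothelial-like nuclei without TMM (0.0700), with no filter on low counts (0.121) and at resolution 2.0 (0.0543). Phlda3 against fibroblast-like nuclei lost it at resolution 2.0 (0.115), Sesn2 against myocyte-like nuclei without the 2 myocyte-rich tumors (0.155) and Eda2r against macrophage-like nuclei without TMM (0.0598) and without the 2 myocyte-rich tumors (0.0703). The labels pair no tumors, but each barcode tag was shared by 1 tumor of each group. Correlations of deviations from the group means within these 4 pairs were -0.254 to 0.010 in tumor-like nuclei. Between tumors of the 2 groups with unlike tags they were -0.195 to 0.344. The tumors were not taken as paired, since the labels give no pairs, and 4 correlations cannot decide the question. With a replicate block on the tag, an alternative added after seeing the data, edgeR called 0 members and 0 genes in each Minnelide comparison. The cause of the changes was not tested.

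None of the Minnelide fold changes in tumor-like nuclei passed the test under any alternative, and 6 of 10 turned direction in at least 1. Without TMM, Trp53 was -0.14, Ccng1 -0.11, Sesn2 -0.063 and Zmat3 -0.075. At resolution 2.0, Ccng1 was -0.023, Phlda3 0.66, Sesn2 -0.25, Eda2r 0.20 and Zmat3 -0.046. Without the 2 tumors richest in myocyte-like nuclei, Phlda3 was 0.43, Sesn2 -0.15 and Zmat3 -0.018. Sesn2 was -0.0010 and Eda2r 0.019 without the filter on nuclei, and Sesn2 was -0.031 with nuclei of at least 1000 UMIs. Eda2r was 0.0044 by DESeq2, 0.0093 with no filter on low counts and 0.0080 with doublets kept. With the replicate block, Phlda3 was 0.11 and Zmat3 -0.083. With a tumor left out the ranges were -0.023 to 0.056 for Trp53, -0.090 to 0.13 for Ccng1, -0.49 to 0.63 for Phlda3, -0.18 to 0.19 for Sesn2, -0.13 to 0.12 for Eda2r and -0.27 to 0.31 for Zmat3.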
